A study of Homo sapiens with 12 samples.

Results

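The baseline transcriptome of HEL cells was described from the control libraries of a study of the histone demethylase KDM4C. HEL, an established human erythroleukemia line, has a mutation in the kinase JAK2, and these cells also expressed the nuclease Cas9 and were grown with blasticidin at 15 µg/mL. The members were chosen by label, with earlier results of these data known. All libraries titled as controls were taken, which gave 4 of the 12 libraries of the series. Libraries with a KDM4C guide were read only to find broken lines of the count table, and their counts entered no result. Control cells had been transduced with a lentiviral guide against luciferase and kept for 11 days in puromycin at 1.5 µg/mL, and the table's column names give dimethyl sulfoxide, the vehicle of a kinase inhibitor, as their last treatment. The methods place the division into replicates after selection, so the spread between the 4 libraries may be technical. Nothing was compared with another cell line or with normal blood cells. All levels describe 1 transduced, selected and vehicle-treated line.

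The guide that the control cells received is printed because it defines the group. Neither strand of hg38 held an exact match (0 matches).

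Luciferase guide: gattctaaaacggattacca

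Erythroid cells and megakaryocytes, the cells that shed platelets, descend from a shared progenitor. GATA factors act in both branches, KLF1 drives the erythroid branch, and FLI1 drives the megakaryocytic branch. Red cell precursors make heme, import iron and fill with globin, and the globin genes are switched in order from embryonic to fetal to adult forms. Erythroleukemia lines are known to carry genes of several of these programs at the same time.

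Levels and differences between libraries are on separate scales. The level is given in TPM, so that different genes can be set side by side: read counts divided by the gene length in the deposited table. These were scaled to a sum of 1000000 over 19360 protein-coding genes outside the mitochondrial genome, and ranks are over these genes too. The length is given per gene and not per transcript, so ratios between genes depend on it, and some orders change without it. Differences between libraries are given in CPM, counts per 1000000 scaled by edgeR's TMM method. Values are given for libraries 1 to 4 in that order or as mean ± SD with n = 4. With 1 group of 4 libraries no test between conditions was possible, and a two-sided sign-flip test on 4 values cannot reach a p below 0.05, so no p-value is given. The order of genes is instead described by whether their ranges over the 4 libraries overlap and, where they do, by their order within each library. In bulk RNA, fewer cells with a transcript and less transcript per cell cannot be told apart.

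The libraries differed 5.96-fold in depth, between 13247734 counts in library 4 and 78966125 in library 2. Of all counts, 95.4 ± 0.207% lay in nuclear protein-coding genes, 2.95 ± 0.0810% in mitochondrial genes and 1.01 ± 0.0788% in long non-coding RNAs. Library 4 stood apart in its counts of short genes and in how counts were divided between near-identical globin copies, and libraries 2 and 4 stood apart from 1 and 3 in histone transcripts. These values are given beside the results they touch.

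A total of 11078 of 19360 protein-coding genes (57.2%) averaged at least 1 TPM, and 10847 did so in every library. In the libraries themselves the number was 11039, 11100, 11015 and 11151, so the shallowest library did not show the fewest genes. At least 10 TPM was reached by 8178 genes, 100 TPM by 1948 and 1000 TPM by 109. A total of 3882 genes had no count in any library. The 10 highest genes held 8.03 ± 0.277% of protein-coding TPM, the 100 highest 28.7 ± 0.416% and the 1000 highest 61.8 ± 0.752%. Without length scaling the 10 highest held 4.11% and the 100 highest 15.9%.

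By TPM the 2 highest nuclear protein-coding genes were globins, as mitochondrial genes were not ranked. HBG2, the fetal gamma-globin gene, measured 14751, 15255, 14458 and 20018 TPM, and HBE1, the embryonic epsilon-globin gene, measured 12353, 11924, 12487 and 11801 TPM. HBG2 was above HBE1 in each library, with library 4 the highest for HBG2 and the lowest for HBE1. Without length scaling both came lower, HBG2 at 2906 CPM and HBE1 at 2337 CPM on average, below EEF1A1 (9389 CPM), ACTB (4528 CPM) and GAPDH (3318 CPM) among others. Next by TPM were EEF1A1, the elongation factor that brings tRNAs to the ribosome (8670 ± 472 TPM), cytoplasmic actin ACTB (8101 ± 305 TPM), the ribosomal protein RPS6 (6515 ± 236 TPM) and the glycolytic enzyme GAPDH (6211 ± 196 TPM). Ribosomal proteins made up 10 of the 20 highest genes and 43 of the 100 highest. The other genes among the 20 highest were the chaperones HSPA8 (5208 ± 64.7 TPM) and HSP90AB1 (3881 ± 43.2 TPM), tubulin TUBA1B (4134 ± 111 TPM), the poly(A)-binding protein PABPC1 (3989 ± 101 TPM) and the ferritin light chain FTL (3888 ± 259 TPM). Long non-coding RNAs were led in CPM by MALAT1, a nuclear RNA (1074, 1787, 1203 and 2205 CPM), although 82.1% of its exon bases are shared with another listed gene, and by NORAD, which binds Pumilio proteins (751, 758, 750 and 776 CPM). NORAD was nearly level over the libraries, while MALAT1 was higher in libraries 2 and 4.

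All 5 genes given as markers of the line were high. ITGA2B, the platelet integrin subunit alpha IIb on chromosome 17 (44372181 to 44389649), measured 1006, 1029, 974 and 1060 TPM. KIT, the stem cell factor receptor on chromosome 4 (54657928 to 54740715), measured 537, 557, 522 and 573 TPM. GATA1, the erythroid and megakaryocytic master factor on chromosome X (48786540 to 48794311), measured 488, 519, 484 and 523 TPM. Ranges of KIT and GATA1 overlapped over the libraries, with KIT the higher within each, and the other neighbours in the order of markers lay apart. JAK2, a kinase that signals for cytokine receptors, on chromosome 9 (4985086 to 5128183), measured 181, 188, 171 and 202 TPM, rank 954 of 19360. HBG2, on chromosome 11 (5253188 to 5254781), held rank 1, ITGA2B rank 107, KIT rank 243 and GATA1 rank 268. All positions are in hg38, the build of the count table.

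**Figure D1:**
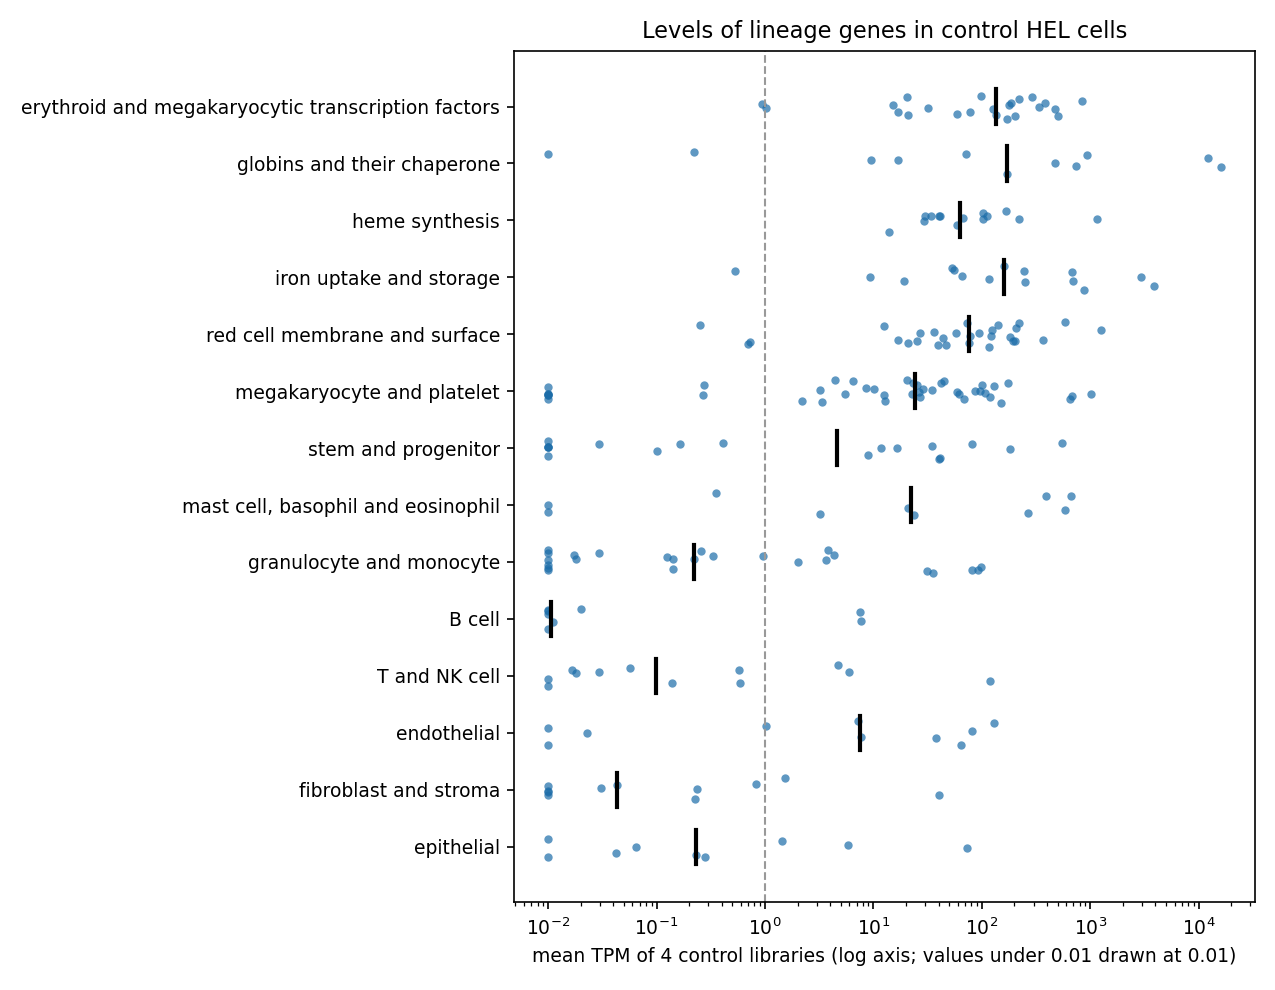
Mean TPM over 4 control libraries (horizontal log axis, values under 0.01 drawn at 0.01) for the measured members of 14 lineage lists, with 1 point per gene, a black bar at the list median and a dashed line at 1 TPM. Erythroid, iron and transcription factor lists sit mostly above 10 TPM, while lists for B cells, T and NK cells, stroma and epithelium sit mostly below 1 TPM.

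Transcription factors of the erythroid and megakaryocytic branches were present together: 22 of 23 measured members averaged at least 1 TPM, and 13 at least 100 TPM, against 57.2% and 10.1% of all protein-coding genes. GATA2, which acts early and in mast cells, was the highest with 844, 872, 834 and 835 TPM. It exceeded GATA1 in every library, with a log2 ratio of 0.75 ± 0.05. Below GATA1 came NFE2, a leucine-zipper factor needed for platelet release (472 ± 7.73 TPM), LDB1, which links GATA1 complexes to distant enhancers (384 ± 10.8 TPM), and the repressor GFI1B (339 ± 17.1 TPM). KLF1 measured 276, 301, 286 and 295 TPM and FLI1 measured 223, 222, 221 and 222 TPM. KLF1 was higher in TPM in all 4 libraries, with a log2 ratio of KLF1 over FLI1 of 0.38 ± 0.06. Without length scaling the order was reversed, at 152 CPM for KLF1 and 350 CPM for FLI1 on average. Of FLI1's exon bases, 10% are shared with non-coding neighbours. TAL1, a helix-loop-helix partner of GATA1, followed at 203 ± 9.32 TPM, and its range lay apart from that of FLI1.

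MYB, RUNX1 and CBFA2T3 lay close together, at 187 ± 9.67, 172 ± 13.3 and 178 ± 6.12 TPM, and their ranges overlapped, with MYB above both others within each library. SPI1, the factor of granulocytes and monocytes, measured 99.1, 99.1, 93.5 and 99.3 TPM, so GATA1 exceeded it by 2.36 ± 0.05 on the log2 scale. ZFPM1, the cofactor of GATA1, was low among these factors at 16.8 ± 0.763 TPM. ERG, an ETS factor of stem cells and megakaryocytes, averaged 1.03 ± 0.0867 TPM, and IKZF2, a lymphoid factor, 0.934 ± 0.0848 TPM. Of 22 neighbouring pairs in the order of these factors, 15 had ranges that lay apart and 7 overlapped.

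**Figure D2:**
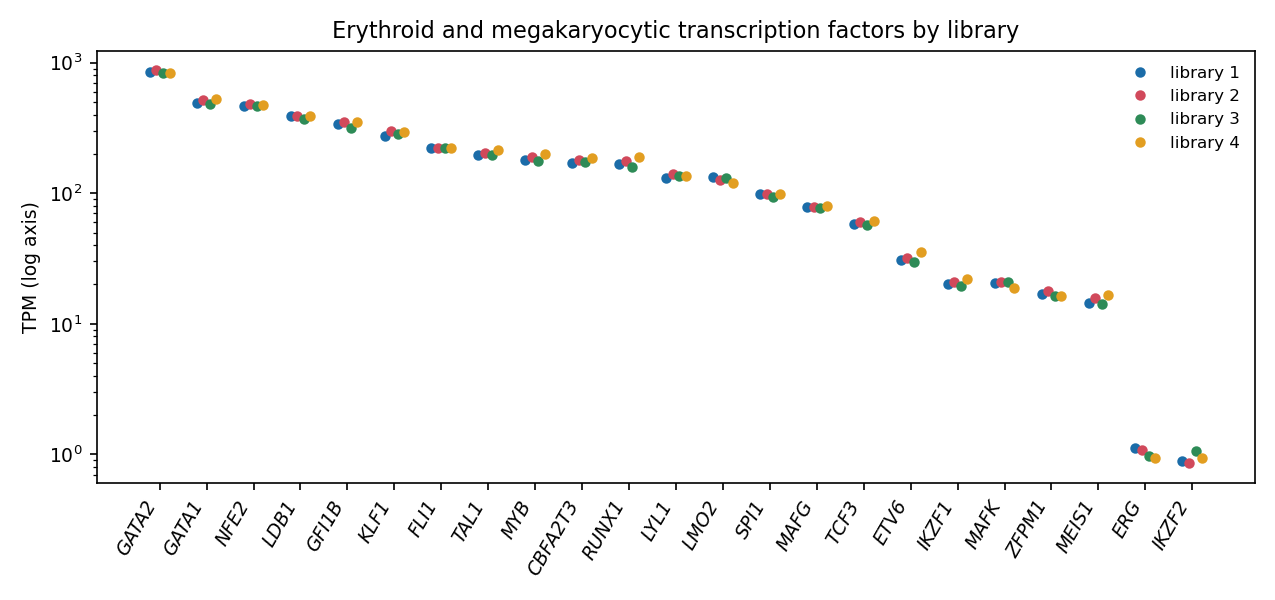
TPM (log axis) of 23 erythroid and megakaryocytic transcription factors, sorted from the highest to the lowest mean, with 1 point for each of the 4 control libraries. GATA2 leads in every library, most factors lie between 10 and 1000 TPM, and ERG and IKZF2 lie near 1 TPM.

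The promoters of 4 genes that carry the short word AGATAA are printed to show where this GATA-type letter sequence stands. AGATAA and its reverse complement TTATCT were searched in windows of 300 bases, 250 before to 50 after the start of each gene, from RefSeq on GRCh38.p14. Of 36 genes in the erythroid list 18 were matched, and 10 of them held the word in at least 1 window. Counted by window, it stood in 47.8% of 23 erythroid windows and in 8.33% of 48 megakaryocyte and platelet windows, against 10.3% of all 35116 windows. Of 10 genes in the mast cell, basophil and eosinophil list 6 were matched, and 4 held the word. Windows of genes with at least 100 TPM held it in 5.06%, those from 1 to under 100 TPM in 6.19% and those under 1 TPM in 10.9%. Searched in the same way, CACCC with its reverse complement GGGTG stood in 69.6% of erythroid and 72.9% of megakaryocyte windows, against 59.9% of all. The word CCAAT with its reverse complement ATTGG stood in 21.7% and 22.9%, against 34.6% of all. Matches of different words can share letters, and a match of letters is not a bound site. Many members share a class and several genes hold more than 1 window, so these shares are descriptions only. The 4 windows below were chosen after the levels were seen, as the highest erythroid and mast-type genes with a single window and the word. ALAS2 is on chrX:55030928-55031227 (minus strand), EPB42 on chr15:43220969-43221268 (minus strand), FCER1A on chr1:159302086-159302385 (plus strand) and CPA3 on chr3:148865046-148865345 (plus strand), and capitals mark the word on either strand.
ALAS2: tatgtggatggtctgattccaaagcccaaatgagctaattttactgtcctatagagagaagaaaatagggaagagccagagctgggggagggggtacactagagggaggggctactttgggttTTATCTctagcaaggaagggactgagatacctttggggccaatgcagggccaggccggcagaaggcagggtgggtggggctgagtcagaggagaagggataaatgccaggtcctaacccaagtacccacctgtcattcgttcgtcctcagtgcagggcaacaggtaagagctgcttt
EPB42: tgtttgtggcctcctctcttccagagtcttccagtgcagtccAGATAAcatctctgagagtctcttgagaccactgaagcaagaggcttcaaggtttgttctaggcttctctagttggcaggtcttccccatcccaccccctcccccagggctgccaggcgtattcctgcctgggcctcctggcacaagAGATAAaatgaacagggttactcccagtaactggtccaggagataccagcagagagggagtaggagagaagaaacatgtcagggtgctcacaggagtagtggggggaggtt
FCER1A: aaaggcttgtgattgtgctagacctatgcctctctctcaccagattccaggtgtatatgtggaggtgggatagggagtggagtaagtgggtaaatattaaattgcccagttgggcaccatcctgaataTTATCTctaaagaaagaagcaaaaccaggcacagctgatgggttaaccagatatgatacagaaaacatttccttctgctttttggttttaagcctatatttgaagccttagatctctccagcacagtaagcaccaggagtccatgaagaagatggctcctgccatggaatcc
CPA3: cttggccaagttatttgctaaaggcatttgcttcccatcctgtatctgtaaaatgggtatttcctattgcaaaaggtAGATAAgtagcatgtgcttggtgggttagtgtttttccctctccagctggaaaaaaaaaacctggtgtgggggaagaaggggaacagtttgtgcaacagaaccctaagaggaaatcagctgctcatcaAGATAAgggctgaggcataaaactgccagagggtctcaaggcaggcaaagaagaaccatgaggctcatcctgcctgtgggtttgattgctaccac
The ALAS2 and FCER1A windows held 1 match each, and those of EPB42 and CPA3 held 2 each.

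Globin output was embryonic and fetal. All globins together held 3.07 ± 0.200% of protein-coding TPM. Of globin TPM, HBG2 held 52.3 ± 4.90% and HBE1 39.7 ± 3.21%. In library 4 HBG2 held 59.5%, and without that library its share was 49.96%. The adult gene HBB measured 8.32, 9.33, 8.71 and 11.6 TPM, and HBD, the minor adult gene, 17.4, 17.8, 17.1 and 14.5 TPM. HBG1 plus HBG2 exceeded HBB by 10.80 ± 0.05 on the log2 scale, so adult beta-globin was a trace in every library. Beside these genes lie HBBP1, a pseudogene, at 610 ± 14.4 TPM and BGLT3, a non-coding RNA, at 25.5 ± 2.62 TPM, both named after their values were seen.

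The alpha-like side was far smaller. Alpha-like globins held 5.41 ± 0.717% of globin TPM, and beta-like globins exceeded them by 4.14 ± 0.22 on the log2 scale, or 17.6-fold. HBA1 and HBA2 are near-identical, and reads that fit both may be missing, so this share may be too low and the ratio too high. HBA2 measured 918, 899, 886 and 1029 TPM, the embryonic HBZ 168, 179, 173 and 162 TPM, and HBQ1 79.6, 68.3, 65.9 and 73.4 TPM. HBZ was close to level over the libraries and held the same place below HBA2 in each. HBM had 0 counts, which allows up to 0.142 TPM at 3 counts over the 4 libraries, and AHSP, the chaperone of free alpha-globin, had 6 counts in all (0.221 ± 0.156 TPM). Both are genes of maturing red cells.

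Counts of the near-identical globin copies were divided unequally in library 4. HBG1 took 5.23% (95% Wilson interval 5.07 to 5.39%), 4.77% (4.68 to 4.85%), 6.40% (6.19 to 6.62%) and 1.73% (1.62 to 1.85%) of the counts of HBG1 plus HBG2. HBA1 took 37.9%, 36.1%, 41.4% and 16.3% of the counts of HBA1 plus HBA2. These intervals cover counting error only, and library 4 lay outside those of the other 3 in both pairs. The transcripts of HBG1 and HBG2 are 99.3% identical, with a longest shared stretch of 279 bases, and those of HBA1 and HBA2 are 97.6% identical, with a shared stretch of 480 bases. Levels of the single copies are therefore uncertain, and sums over a pair may be too low where reads fit both copies. Summed over the pair, HBG1 and HBG2 measured 2854, 2882, 2883 and 3538 CPM, so library 4 remained the highest, and HBA1 and HBA2 measured 267, 249, 277 and 210 CPM, so it was the lowest. In another pair of similar genes library 4 was nearer to the rest: RHCE took 46.8, 46.4, 48.3 and 44.2% of those of RHCE plus RHD.

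**Figure D3:**
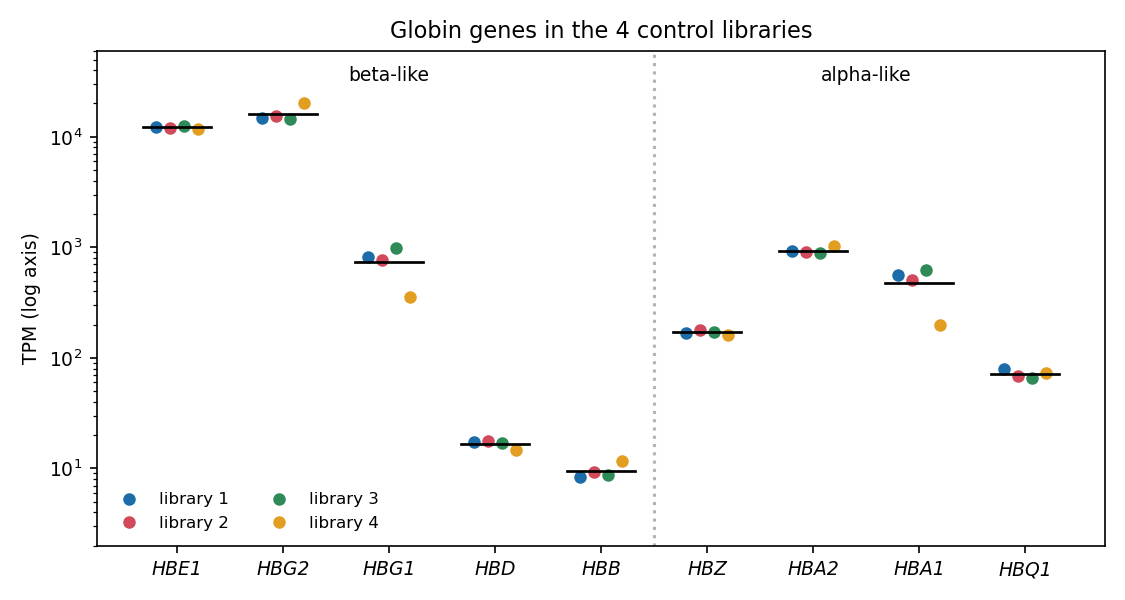
TPM (log axis) of 9 globin genes in control libraries 1 to 4, beta-like genes on the left and alpha-like genes on the right, with a black bar at the mean. HBG2 and HBE1 lie above all other globins, HBB near 10 TPM, and library 4 lies below the others for HBG1 and HBA1.

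Genes known to hold fetal globin on or off were unevenly expressed. Of 17 regulators, 15 (88.2%) averaged at least 1 TPM, against 57.2% of all protein-coding genes. BCL11A, the repressor of fetal globin, measured 1.48, 1.92, 1.80 and 1.70 TPM, and SOX6, its partner, 0.0726 ± 0.0256 TPM. Both were near the bottom of the list in each library. ZBTB7A, another repressor of gamma-globin, was at 21.2 ± 0.619 TPM, while CHD4, the helicase of the NuRD complex, led the list at 549 ± 15.9 TPM. On the fetal side, LIN28B, an RNA-binding protein that blocks let-7 maturation, measured 99.6, 102, 97.3 and 103 TPM, and its relative LIN28A had 0 counts, which allows up to 0.0177 TPM. IGF2BP1, a fetal RNA-binding protein, measured 200 ± 9.86 TPM and was the highest of its family, above IGF2BP2 (53.1 ± 3.91 TPM) and IGF2BP3 (34.8 ± 0.938 TPM).

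All 14 genes of heme synthesis and transport reached at least 10 TPM, which 42.2% of all protein-coding genes did. UROD, the decarboxylase in mid-pathway, measured 1159, 1152, 1147 and 1141 TPM. ALAS2, the erythroid enzyme of the first step whose promoter is printed above, measured 218, 228, 218 and 219 TPM, and ALAS1, its counterpart of all tissues, 111, 113, 109 and 114 TPM. The erythroid form was thus the higher of the pair in every library, with a log2 ratio of ALAS2 over ALAS1 of 0.98 ± 0.03. The porphyrin carrier ABCB6 (103 ± 2.25 TPM) and CPOX (102 ± 2.76 TPM) were at a similar order of size. FECH, which inserts the iron, measured 58.5 ± 1.35 TPM, and the heme exporter FLVCR1 was the lowest at 14.03 ± 0.993 TPM.

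Iron genes were high, and 9 of 15 (60%) passed 100 TPM, against 10.1% of all protein-coding genes. The ferritin chains led, with FTL at 3955, 4192, 3836 and 3569 TPM and FTH1 at 3039, 2981, 3055 and 2764 TPM, although 73% of the exon bases of FTH1 are shared with BEST1. Library 4 was the lowest for both chains. The transferrin receptor TFRC measured 668, 678, 675 and 689 TPM and exceeded TFR2, its relative in iron sensing, at 249 ± 18.3 TPM. SLC25A37, the mitochondrial iron importer of red cell precursors, stood at 244 ± 10.3 TPM and the iron exporter SLC40A1 at 118 ± 4.68 TPM. HFE, a partner of the transferrin receptors, was low at 0.534 ± 0.145 TPM.

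Red cell membrane genes were mostly present, with 26 of 29 (89.7%) at 10 TPM or more and 12 (41.4%) at 100 TPM or more. Of all protein-coding genes 42.2% and 10.1% reached these levels. CA1, the carbonic anhydrase of red cells, measured 1258, 1251, 1222 and 1259 TPM, and RHAG, the carrier partner of the Rh proteins, 582, 582, 587 and 584 TPM. Both were nearly level over the libraries. Glycophorin GYPC (367 ± 6.13 TPM), the adaptor ankyrin ANK1 (222 ± 9.76 TPM) and the adhesion protein ICAM4 (209 ± 7.89 TPM) followed. The cytoskeleton was uneven, with EPB42 at 125 ± 3.32 TPM and SPTB at 57.6 ± 3.33 TPM. The 3 genes under 1 TPM were SLC4A1, the anion exchanger band 3 of mature red cells (1.005, 0.706, 0.718 and 0.345 TPM), KEL (0.252 ± 0.0989 TPM) and BCAM (0.723 ± 0.132 TPM). Band 3 was thus at a trace level while its anchor ANK1 was not, and EPB42, which also binds it, was high.

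Megakaryocyte and platelet genes were mostly present, with some receptors and some stored proteins near 0. Of 42 measured members, 34 averaged at least 1 TPM, 27 at least 10 TPM and 8 at least 100 TPM. Of all protein-coding genes 57.2%, 42.2% and 10.1% reached these levels. After ITGA2B came PLEK, a kinase C substrate of platelets (674 ± 7.66 TPM), the integrin activator FERMT3 (658 ± 25.1 TPM), the thrombin receptor F2R (173 ± 5.06 TPM) and ITGB3, the beta partner of ITGA2B. ITGB3 measured 150, 149, 142 and 164 TPM, which put ITGA2B above it by 2.75 ± 0.04 on the log2 scale. Subunits of the von Willebrand factor receptor stood at 99.8 ± 2.32 TPM (GP9), 86.5 ± 2.59 TPM (GP1BA) and 22.6 ± 0.417 TPM (GP5). GP1BB had 0 counts, but all of its exon bases are shared with a readthrough gene, so its level was not measured.

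Proteins stored in platelet granules were uneven. The binding protein LTBP1 (107 ± 5.19 TPM), clusterin CLU (96.8 ± 1.35 TPM), SPARC (62.1 ± 1.91 TPM), multimerin MMRN1 (25.1 ± 2.22 TPM) and thrombospondin THBS1 (20.3 ± 2.55 TPM) were present, with 14% of the exon bases of CLU and 28% of those of THBS1 shared. PF4, the platelet chemokine, measured 7.40, 5.33, 6.10 and 7.21 TPM, and PPBP, its neighbour in the granule, 0.363, 0.442, 0.279 and 0 TPM. Von Willebrand factor (VWF), the collagen receptor GP6, the clotting factor F13A1 and the ADP receptor P2RY12 had 1 count each in all 4 libraries, GP6 being listed on 10 contigs, and PF4V1 had 0. SELP, the granule membrane selectin, was present at 26.6 ± 2.61 TPM and the platelet tubulin TUBB1 at 34.6 ± 0.714 TPM, with 31% of its exon bases shared. Ranges of neighbours in the lower part of the list overlapped often, 23 of 41 pairs in the whole list.

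Set against each other, the median of the erythroid list was 197, 202, 198 and 204 TPM, and that of the megakaryocyte and platelet list 23.8, 24.7, 23.1 and 26.05 TPM. The log2 ratio of erythroid over megakaryocytic medians was 3.04 ± 0.05, or 8.20-fold, and the ranges lay apart. Leaving out the globins gave 3.04 ± 0.04, and without length scaling the ratio was 2.20 ± 0.09. The lists differ in size, 36 against 42 genes, and were not matched for how specific their members are. GATA1 and NFE2, which also serve the megakaryocytic branch, are in the erythroid list only. The megakaryocyte and platelet list holds no transcription factor. The median of all protein-coding genes was 4.01 TPM.

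Of 18 stem and progenitor genes, 9 (50%) averaged at least 1 TPM, near the 57.2% of all protein-coding genes. KIT and SPN, the sialophorin of blood cells (180 ± 6.95 TPM), were the highest. HOXB4 stood at 81.6 ± 2.73 TPM and HOXA10 at 34.5 ± 1.89 TPM, with 30% of its exon bases shared, while HOXA9 had 10 counts, with 72% shared. CD34, the surface sialomucin that marks progenitors, measured 8.75, 9.28, 8.40 and 8.92 TPM. The receptor FLT3 was at 0.407 ± 0.0662 TPM, CD38 had 2 counts, and PROM1 had 0 (up to 0.0128 TPM). Thus KIT was the only surface marker of the list over 200 TPM.

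Among mast cell and basophil genes, HDC and FCER1A were above the markers KIT and GATA1 in TPM and below ITGA2B and HBG2. HDC, the enzyme that makes histamine, measured 656, 696, 643 and 685 TPM, above GATA1 in every library by 0.41 ± 0.02 on the log2 scale. FCER1A, the alpha chain of the IgE receptor, measured 579, 594, 569 and 577 TPM, and CPA3, the mast cell carboxypeptidase, 265, 269, 266 and 258 TPM. The promoters of FCER1A and CPA3 are those printed above with AGATAA. PRG2, the major basic protein of eosinophils, stood at 387 ± 15.0 TPM. The tryptases TPSB2 (23.6 ± 2.17 TPM) and TPSAB1 (20.8 ± 1.63 TPM) were lower, and since TPSAB1 took 48.0, 50.2, 47.2 and 42.1% of the counts of this similar pair, their separate levels are uncertain. MS4A2, the beta chain of the IgE receptor, was at 3.22 ± 0.415 TPM, and the chymase CMA1 and the eosinophil lectin CLC had 0 counts. In all, 4 of 10 members passed 100 TPM, against 10.1% of all protein-coding genes, and 3 were below 1 TPM.

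Granulocyte and monocyte genes were mostly low: 9 of 25 (36%) averaged at least 1 TPM, against 57.2% of all protein-coding genes, and 0 reached 100 TPM. SPI1 led, followed by the lectin CD33 (89.9, 95.2, 91.8 and 92.8 TPM) and lysozyme LYZ (80.0, 76.5, 92.1 and 78.2 TPM). CEBPB stood at 31.0 ± 0.617 TPM and CEBPA, the granulocytic factor, at 2.02 ± 0.342 TPM. Myeloperoxidase MPO had 2 counts, CD14 10 counts and ELANE 0, ELANE being listed on 2 contigs. The granule protein LCN2, at 35.3 ± 3.28 TPM, was among the 5 highest members.

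Genes of the B cell list and of the T and NK list were mostly below 1 TPM, a level that 57.2% of all protein-coding genes reached. CD3D had 0 counts (up to 0.0827 TPM) and PAX5 5 counts. CD79A (7.65 ± 0.565 TPM) and CD79B (7.48 ± 0.989 TPM), chains of the B cell receptor, were the 2 of 8 B cell genes at 1 TPM or more. In the T and NK list 3 of 12 reached 1 TPM, or 5 at a threshold of 0.5 TPM, and CD4, a coreceptor that monocytes and progenitors also carry, measured 122, 120, 117 and 115 TPM. CD4 without CD3D, CD3E or CD8A (0, 1 and 3 counts) was the pattern in these libraries.

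Of 10 endothelial genes 7 averaged at least 1 TPM and 4 at least 10 TPM, against 57.2% and 42.2% of all protein-coding genes. At 10 TPM the list (40%) was thus near the share of all genes. VWF and ERG are also members of blood lists. TIE1, a receptor kinase of vessels and blood progenitors, measured 134, 130, 128 and 131 TPM, ENG 82.0 ± 5.69 TPM and the receptor KDR 37.7 ± 3.95 TPM. The junction cadherin CDH5 was at 7.25 ± 0.268 TPM and CLDN5 had 0 counts. Of 11 fibroblast genes 2 reached 1 TPM, or 1 at a threshold of 2 TPM, namely THY1 (40.5 ± 0.743 TPM), which is also on the stem cell list. COL1A1 was at 0.225 ± 0.0595 TPM. Of 9 epithelial genes 3 reached 1 TPM, led by keratin KRT18 at 72.5 ± 1.61 TPM, while EPCAM averaged 0.279 ± 0.253 TPM.

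Receptors and kinases of the JAK pathway were broadly expressed, 30 of 37 (81.1%) at 1 TPM or more and 13 (35.1%) at 100 TPM or more. The shares of all protein-coding genes were 57.2% and 10.1%. JAK2 and JAK1 (176, 177, 176 and 184 TPM) could not be put in order, with a log2 ratio of JAK2 over JAK1 of 0.05 ± 0.07. TYK2 stood at 99.9 ± 4.97 TPM and JAK3 at 71.0 ± 7.99 TPM. STAT5A measured 348, 347, 343 and 347 TPM and STAT5B 122, 123, 119 and 124 TPM, a log2 ratio of 1.50 ± 0.02. The genes overlap in part, 13% of the exon bases of STAT5A. STAT3 was higher than both at 390 ± 12.6 TPM. EPOR, the erythropoietin receptor, measured 44.7, 46.9, 43.0 and 51.2 TPM, below JAK2 in every library.

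Known targets and brakes of the pathway were uneven. The kinase PIM1 measured 851, 885, 857 and 871 TPM and PIM2 393 ± 14.8 TPM. SOCS3 stood at 126 ± 4.96 TPM, CISH at 31.9 ± 1.19 TPM, SOCS2 at 14.1 ± 0.252 TPM and SOCS1 at 11.2 ± 2.07 TPM. The adaptor SH2B3, which restrains JAK2, was at 76.7 ± 3.08 TPM. Receptors of growth hormone (GHR) and prolactin (PRLR) had 0 counts. CSF2RA and IL3RA also had 0 counts, but both are listed on X and Y, where 16 of 17 protein-coding genes had 0, so their levels were not measured.

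KDM4C, the demethylase the study set out to edit, measured 16.3, 17.2, 16.0 and 17.9 TPM in these unedited cells. KDM4A measured 70.5, 69.4, 69.2 and 75.3 TPM and exceeded it by 2.08 ± 0.05 on the log2 scale. Without length scaling the gap was smaller, at 103 CPM for KDM4A and 69.0 CPM for KDM4C on average. The lengths used were 4693 bases for KDM4A and 13272 for KDM4C. KDM4B, at 15.6, 17.0, 15.6 and 17.4 TPM, overlapped KDM4C in range but was the lower of the pair within each library. KDM4D was at 2.36 ± 0.498 TPM and KDM4E had 0 counts, which allows up to 0.0304 TPM.

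Proliferation genes were high, 22 of 29 (75.9%) at 100 TPM or more, against 10.1% of all protein-coding genes. TYMS, the thymidylate synthase (711 ± 24.0 TPM, 60% of exon bases shared), the helicase subunits MCM4 (538 ± 22.5 TPM) and MCM7 (526 ± 11.8 TPM) and MYC (410, 418, 407 and 421 TPM) were among the leaders. D-type cyclins, which start the cell cycle, were used unequally. CCND3 measured 663, 672, 666 and 680 TPM, CCND2 79.3, 91.8, 82.2 and 112 TPM, and CCND1 0.784, 0.691, 0.817 and 0.413 TPM. CCND3 exceeded CCND2 by 2.89 ± 0.21 and CCND1 by 10.00 ± 0.47 on the log2 scale. Among survival genes, BCL2L1 measured 310, 322, 313 and 302 TPM, with 35% of its exon bases shared, and BCL2 3.14, 3.43, 3.87 and 3.35 TPM, a log2 ratio of 6.504 ± 0.121. MCL1 stood between them at 229 ± 4.4 TPM. The erythroid survival gene BCL2L1 was thus the highest and BCL2 was near the foot of 14 apoptosis regulators.

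Inhibitors of cyclin-dependent kinases differed widely in level. CDKN2C stood at 165 ± 2.83 TPM, CDKN2D at 119 ± 4.21 TPM and CDKN1B at 81.8 ± 1.40 TPM, with 50% of exon bases shared. CDKN1A, an inhibitor induced by stress, measured 5.16, 6.13, 5.16 and 6.10 TPM. CDKN2A had 2 counts, both in library 2, and CDKN2B had 0, which allows up to 0.0179 TPM. These last 2 genes are neighbours on the short arm of chromosome 9.

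Their neighbourhood held almost no reads. Between FOCAD (17.2 ± 2.65 TPM) and TUSC1 (116 ± 6.02 TPM), at 20995956 to 25676388 of chromosome 9 or over 4.68 megabases, 22 of 24 protein-coding genes had 0 counts in all 4 libraries. The other 2 were CDKN2A, with 2 counts, and HACD4, an enzyme of fatty acid elongation, with 1, so 3 of 136745381 counts fell on these 24 genes. Of all 19360 protein-coding genes, 3882 had 0 counts in all 4 libraries. All 16 interferon genes of the stretch had 0, and such genes are mostly silent in unstimulated cells. MTAP, a methionine salvage enzyme made in most tissues, also had 0 (up to 0.0118 TPM), as did the ubiquitin ligase adaptor KLHL9 (up to 0.0124 TPM) and the gene DMRTA1 (up to 0.0127 TPM). Counting all gene types, 37 of 44 genes had 0 counts and the total was 18. Outside the stretch on the FOCAD side, MLLT3 stood at 123 ± 2.65 TPM and RPS6 was the gene with rank 5. Flanking genes, other than CDKN2A, CDKN2B, MTAP, KLHL9 and DMRTA1, were named after their values were seen. DNA copy number was not measured, and its part in these zeros was not tested.

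**Figure D4:**
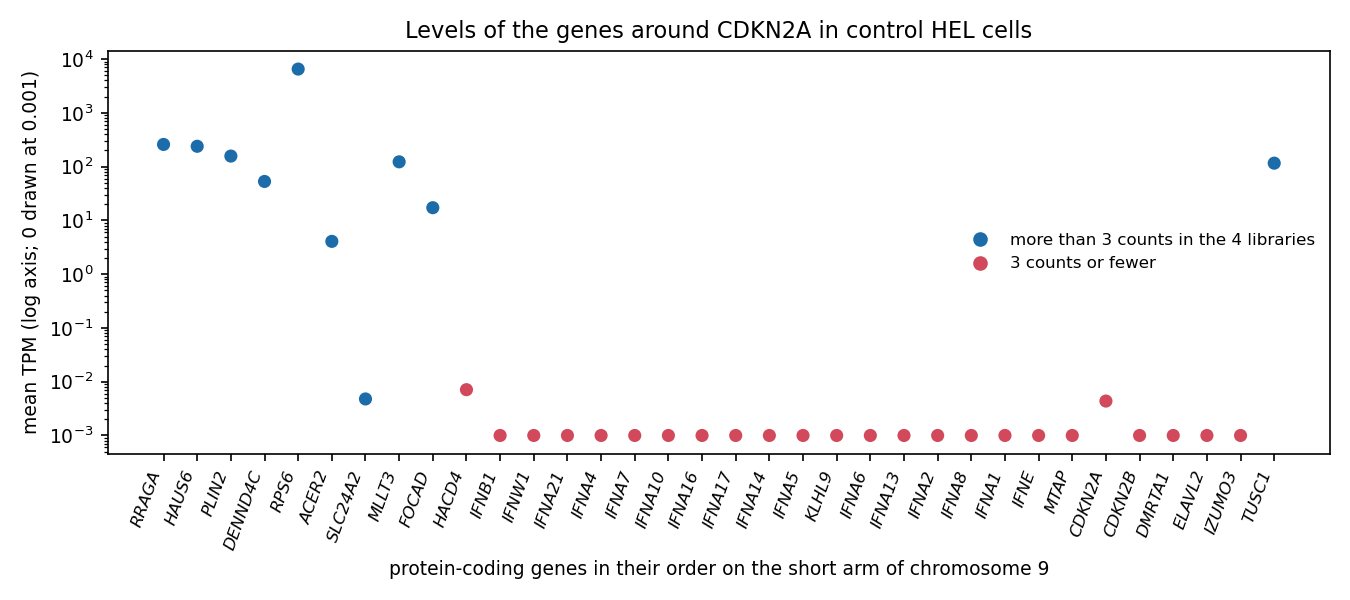
Mean TPM of 4 control libraries (log axis, 0 drawn at 0.001) for 34 protein-coding genes in their order on the short arm of chromosome 9, in blue with more than 3 counts over the 4 libraries and in red with 3 or fewer. The 24 genes between FOCAD and TUSC1 lie at or near 0, and genes on both sides reach over 10 TPM, except ACER2 and SLC24A2.

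Zeros were more frequent for genes placed on several contigs. Of 1160 protein-coding genes listed on a chromosome and on alternate contigs, 47.9% had 0 counts and 15.9% reached 1 TPM, against 18.2% and 59.9% of 18183 genes on 1 contig. TUBB, the major beta-tubulin, is listed on 8 contigs and measured 14.8 ± 0.847 TPM, and B2M, the light chain of class I molecules, on 2 contigs with 105 ± 12.9 TPM. Levels of such genes may be too low by an unknown amount. Among the genes of the lineage lists named above, KEL, GP6 and ELANE are of this kind.

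The 4 libraries were close for most genes. Over 8898 protein-coding genes with a mean of at least 10 CPM, the median ratio of the highest to the lowest library was 1.10, and 92.8% of genes lay within a ratio of 1.25. Beyond counting noise, edgeR put the common coefficient of variation at 5.00%. Pearson's r of log2 CPM between pairs, across genes, which are not independent replicates, was 0.998 to 0.999 over 6 pairs. The reduced chi-square of counts lay between 2.01 (libraries 1 and 3) and 6.82 (libraries 3 and 4), with 3.58 for libraries 2 and 4, so none looked like a duplicate deposit of another. This does not show that they are independent cultures.

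The largest differences between libraries were in replication-dependent histones, whose transcripts are made in S phase and lack a poly(A) tail. A ratio of at least 2 was found for 44 genes, of which 35 were such histones, and of at least 1.5 for 82 genes, of which 36 were histones. Without library 4 the latter count was 37. The 10 most variable genes were all histones: H2BC3, H3C2, H1-5, H3C3, H2AC13, H4C13, H2AC14, H2AC11, H2AC12 and H3C10. H2BC3, with the largest ratio (5.44), measured 3.53, 19.2, 7.03 and 16.5 CPM, and H3C2 9.25, 45.1, 15.9 and 37.4 CPM. All 49 histone genes with a mean of at least 1 CPM were higher in libraries 2 and 4 than in 1 and 3. At the stricter minimum of 10 CPM, this held for 19.5% of the 8898 protein-coding genes. The 49 histone genes summed to 473, 1366, 692 and 1375 CPM.

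RN7SK, a small nuclear RNA that RNA polymerase III makes and that also lacks a poly(A) tail, measured 216, 1283, 332 and 722 CPM, so its order over the libraries was like that of histones except that library 2 was well above library 4. Of the 29 proliferation genes, 7 (24.1%) were also higher in libraries 2 and 4 than in 1 and 3, against the 19.5% given above, and among these 7 the largest ratio of the highest to the lowest library was 1.34. MKI67, a marker of cycling cells, was 710, 760, 676 and 789 CPM, MCM4 694, 697, 682 and 701 CPM, and MCM7 505, 494, 521 and 501 CPM. The part of RNA selection in the histone difference was not tested.

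Library 4 was low in short genes. For 266 protein-coding genes of up to 1000 bases the median log2 of CPM over the mean of the 4 libraries was 0.03, -0.01, 0.09 and -0.12, and for 1785 genes over 8000 bases it was -0.01, 0.01, -0.04 and 0.04. RPS29, a short ribosomal protein gene, measured 192, 170, 227 and 89.1 CPM, and the respiratory subunit NDUFB1 27.4, 23.3, 29.8 and 12.7 CPM, both named after their values were seen. Ribosomal proteins summed to 56939, 54176, 59489 and 50220 CPM. Globin transcripts are short as well, and there library 4 was the lowest for HBG1, HBA1, HBE1, HBZ and HBD and the highest for HBG2, HBA2 (165, 159, 162 and 176 CPM) and HBB (1.63, 1.80, 1.74 and 2.15 CPM). How fragment size or another property of library 4 bears on its HBG2 value was not tested. Without it HBG2 averaged 14821 ± 403 TPM and remained above HBE1, at 12254 ± 294 TPM.

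**Figure D5:**
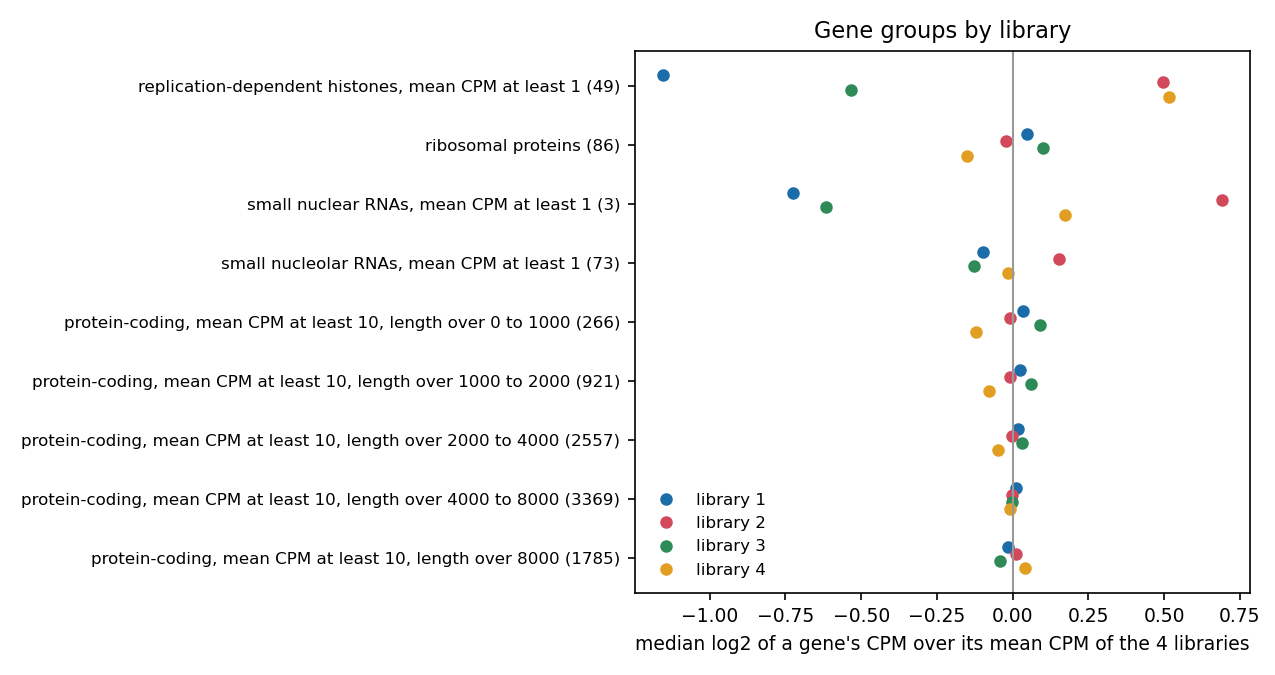
Median log2 of a gene's CPM over its mean CPM of the 4 control libraries (horizontal axis) for 9 gene groups, with the number of genes in brackets, lengths in bases and 1 point per library. Histones split libraries 2 and 4 from 1 and 3 by over 1 on this scale, and in the shortest length class library 4 lies below the rest.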

How the data were processed

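RNA sequencing counts of 4 control libraries were analysed, with groups and replicate numbers taken from the titles. The submitters' processing notes name Trimmomatic 0.39 for trimming of the read pairs, STAR 2.7.4a for alignment to hg38 and featureCounts 2.0.1 for counts per gene. The values the authors deposited are raw counts with a column of gene lengths. No strand option is stated, so reads of overlapping genes may not have been assigned. Of 38571 lines, 20 that were broken by long cells (6 genes, among them TTN and NEB) were left out, which left 38551 genes, and 92.4% were matched to a gene type in a RefSeq table (GRCh38.p14), whose positions overlapped those of the count table for 99.9% of 34681 genes.

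Counts were divided by length and scaled to a sum of 1000000 over 19360 nuclear protein-coding genes (TPM), or scaled by TMM (CPM, edgeR 4.0.16 in R 4.3.3). Other steps used Python 3.11.15. Total counts were 27146125, 78966125, 17385397 and 13247734. The biological coefficient of variation came from an intercept-only edgeR fit, which was tested on simulated data. DESeq2 1.42.0 gave alternative size factors. No test between groups was run, since there was 1 group, and Dixon's ratio was used only to point out libraries far from the rest. Upper limits for genes with 0 counts assume 3 counts over the 4 libraries and, like intervals, cover counting error only.

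The members and 23 gene lists were chosen with earlier results of these data known. Genes were named by rule: the 5 markers, the 20 highest protein-coding genes, the 5 highest and the defining members of each list, the 10 most variable genes, the KDM4 family and the 5 highest non-coding genes. Other genes named were chosen after their values were seen, and part of the genes named by rule is not reported here. Alternatives were another TPM denominator, no length scaling, other thresholds, thinning, other size factors and leaving out each library.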

Additional observations from a re-analysis of the deposited data

Results flagged for a closer look

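Of 173 values examined, 13 had a library far from the other 3 by Dixon's ratio for groups of 4, and chance flags about 1 in 20. Library 4 was the one that stood apart in 9 of the 13. It lay above the others for HBG2 (20018 TPM, against 14458 to 15255 TPM), HBG1 plus HBG2 (20372 TPM, against 15450 to 16021 TPM) and all globins (33663 TPM, against 29625 to 29710 TPM, the same with their chaperone), and so for the sums of the erythroid list (40589 TPM, against 36427 to 36533 TPM) and of the 5 marker genes (22376 TPM, against 16609 to 17549 TPM), which hold HBG2. These 5 sums are not independent of HBG2.

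Library 4 was also above the others for PLEK (685 TPM, against 669 to 671 TPM) and EIF2AK1, the heme-regulated kinase (169 TPM, against 163 TPM in each), and below them for CD79B (6.01 TPM, against 7.79 to 8.09 TPM). Library 3 was low for SPI1 (93.5 TPM, against 99.1 to 99.3 TPM) and ABCB6 (99.8 TPM, against 104 to 105 TPM), library 2 was high for ALAS2 (228 TPM, against 218 to 219 TPM) and library 1 for PCNA (514 TPM, against 494 to 496 TPM). Apart from those that hold HBG2 and from CD79B, the gaps were under 10% of the level.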

How the results depend on the processing

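The count of detected genes and the globin shares moved little under the alternatives run. Each library left out in turn gave 11041 to 11108 detected genes, shares for the 10, 100 and 1000 highest genes of 7.89 to 8.09%, 28.5 to 28.8% and 61.6 to 62.1%, and an erythroid over megakaryocytic log2 ratio of 3.02 to 3.06. It gave a median ratio of the highest to the lowest library of 1.07 to 1.09, a coefficient of variation of 4.397 to 5.605% and 37 to 80 genes with a ratio of 1.5 or more, the lowest without library 4. With all genes as the TPM denominator the 10, 100 and 1000 highest genes held 10.1, 33.0 and 63.8%, and without length scaling 4.11, 15.9 and 49.1%. Without length scaling the erythroid over megakaryocytic log2 ratio was 2.20, and with sums in place of medians it was 3.28. T and NK genes at the threshold numbered 5 of 12 without length scaling or at 0.5 TPM, against 3, and fibroblast genes 1 at 2 TPM, against 2. Genes with a ratio of 1.5 or more numbered 656 at a mean of at least 1 CPM, and 46 without histones, an alternative chosen after seeing the data, against 82. Of 145 named genes at 1 TPM or more, 16 moved by over 10% when a library was left out, among them the 10 histones, HBG1, HBA1, MALAT1 and RN7SK. Depth limits genes under about 0.1 TPM, and the counts of near-identical copies and of genes on several contigs remain uncertain at any depth. Levels of named genes in CPM or with all genes as the denominator stand on another scale, and 273 of 1026 such values, those without 1 library included, moved by more than the SD. No paired analysis was possible because there was 1 group and no test.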
